A study of Mus musculus with 36 samples.

Results

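The genes Arg1, Chil3, Retnla, Mgl2, Clec10a, Il4ra and Egr2 were chosen by name as genes of alternative macrophage activation, and their estimated counts were summed over all transcripts listed for each gene. They are 7 of the 30205 genes summed in this way, each read in all 36 libraries. RNA was sequenced from bone marrow macrophages (BMM), osteoclasts (OC) and osteoblasts (OB) of wild-type control (WT) and Mir324-null mice, which lack a microRNA gene, with 6 libraries in each of the 6 groups. All mice were 20 weeks old. Marrow cells of both genotypes were first expanded for 3 days in 100 ng/mL M-CSF, a macrophage growth factor. BMM were then kept for 5 days with M-CSF at 30 ng/mL, and OC cultures received the same M-CSF plus 50 ng/mL of RANK-L, the cytokine that induces osteoclasts, over 5 days. OB grew out of collagenase-treated bone chips and were held for 18 days with 2 mM β-glycerophosphate and ascorbic acid at 50 µg/mL. The labels name no IL-4 or IL-13 in any culture, and they give neither strain nor how the deletion was made. They also do not say that libraries came from separate mice, so p-values measure the spread between libraries, which may be technical.

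Macrophages that receive interleukin 4 or interleukin 13 take on the state called alternative activation. Both cytokines bind receptors that contain the chain encoded by Il4ra, and Janus kinases at the receptor then phosphorylate the transcription factor STAT6. STAT6 switches on a set of genes that serve as readouts of the state in mice, among them the arginine-consuming enzyme arginase 1 (Arg1), the secreted chitinase-like protein Chil3, the secreted protein Retnla and the galactose-type lectins Mgl2 and Clec10a, and it induces the transcription factor gene Egr2. Macrophages are also the precursors that RANK-L turns into osteoclasts, and IL-4 is known to inhibit that step.

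The products of the deleted gene are shown first, because each can pair with messages through its seed, bases 2 to 8. Both mature sequences (RefSeq, GRCm38.p6) come from the plus strand of chromosome 11, and the seed is in capitals.
miR-324-5p, chr11:70012060-70012082: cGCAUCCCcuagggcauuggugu
miR-324-3p, chr11:70012095-70012114: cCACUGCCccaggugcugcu
The complement of the miR-324-5p seed (GGGATGC) was found in the longest protein-coding 3′ UTR of none of the 7 genes, and 7.4% of 21039 genes held it. The complement of the miR-324-3p seed (GGCAGTG), present in 12.7% of those genes, occurred once in Il4ra and once in Egr2. It starts at base 409 of 2420 in the Il4ra 3′ UTR and at base 854 of 1200 in that of Egr2. Both sites are printed with the matched bases in capitals.
Il4ra: cagatggcctGGCAGTGgcatgggagg
Egr2: gtgtgatgtgGGCAGTGttaacagggt
These are matches of 7 letters and no measurement of binding. Il4ra was higher in null OC, where Egr2 did not pass, and Egr2 was lower in null BMM, where Il4ra was slightly higher. Values are given in the accounts of each gene, and whether the sites bear on them was not tested.

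Promoters, from 250 bases before to 50 after the start, were present in the RefSeq table for 5 of the 7 genes and were read on both strands. The STAT6-type motif TTCNNNNGAA occurred in 1 of them, that of Retnla, against 7.0% of 32851 promoters. It is printed because Retnla is one of the readouts with almost no counts here. The related spacing TTCNNNGAA, which does not overlap that motif in these promoters, occurred in 1, that of Chil3, against 8.3% of all promoters. The EGR-type motif GCGTGGGCG occurred in none of the 5 and in 0.6% of all promoters.
Retnla, chr16:48842359-48842658, plus strand, GRCm38.p6, motif in capitals, first base at -145 from the start: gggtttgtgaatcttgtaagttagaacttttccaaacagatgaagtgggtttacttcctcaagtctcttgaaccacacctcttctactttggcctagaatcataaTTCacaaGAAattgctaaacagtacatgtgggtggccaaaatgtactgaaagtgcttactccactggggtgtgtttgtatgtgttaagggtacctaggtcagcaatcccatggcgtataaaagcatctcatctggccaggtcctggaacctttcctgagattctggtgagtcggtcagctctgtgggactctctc

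Each library held 14118972 to 26347581 estimated counts, no 2 libraries of a group were identical, and the closest of the 90 pairs of replicates differed by a chi-square of 3.34 per gene, above sampling noise. Mir324 itself was not analysed here, which leaves the genotype of the libraries as labelled. The 10 macrophage markers were detected in every group, and the 10 osteoclast markers summed to 29652 to 31879 CPM (counts relative to the scaled library total) in WT OC but 421 to 772 CPM in null OC, where the defining marker Calcr was at 0 in every library. The macrophage markers in turn summed to 48698 to 59941 CPM in null OC and 12444 to 14940 CPM in WT OC. The libraries labelled null OC therefore lacked most of the osteoclast signature that their label names. Most of the macrophage marker sum was Lyz2, averaging 40341 CPM in null OC and 8057 CPM in WT OC. Of the 10 macrophage markers, 7 were higher and 2 lower in null OC (edgeR adjusted p under 0.05), as 65.6% of all genes passed. In BMM their sum was 51884 to 58866 CPM in null and 38467 to 49684 CPM in WT. There 3 were higher and 4 lower in null, as 52.3% of all genes passed. Adgre1 averaged 7466 CPM in null BMM and 1892 CPM in WT BMM, and Fcgr1 22.1 and 58.5 CPM. WT OB held osteoblast markers at 54645 to 78391 CPM, and also macrophage markers at 12394 to 15553 CPM and osteoclast markers at 4141 to 5270 CPM. In null OB these sums were 97254 to 116438, 6953 to 9878 and 5029 to 7784 CPM, in that order. Of 10 markers of each type, null OB had 5 osteoblast markers higher and 1 lower (edgeR adjusted p under 0.05). It had 0 macrophage markers higher and 7 lower, and 5 osteoclast markers higher and 0 lower, as 32.5% of all genes passed. In bulk RNA, fewer cells of a type and less RNA per cell cannot be told apart.

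Of the 7 genes, 5 had enough counts to be tested in every comparison. Chil3 and Retnla did not, and they are described last. Per length, Il4ra was the most abundant of the 7 in all 6 groups, averaging between 18.5 TPM, a measure corrected for transcript length in WT OC and 118 TPM in null OB. Arg1 averaged 28.8 ± 11.6 TPM in WT BMM (SD, n = 6) and between 3.68 and 8.16 TPM in the other 5 groups. Egr2 lay between 5.17 and 21.1 TPM, Clec10a between 3.59 and 12.5 TPM and Mgl2 between 0.186 and 1.91 TPM.

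**Figure D1:**
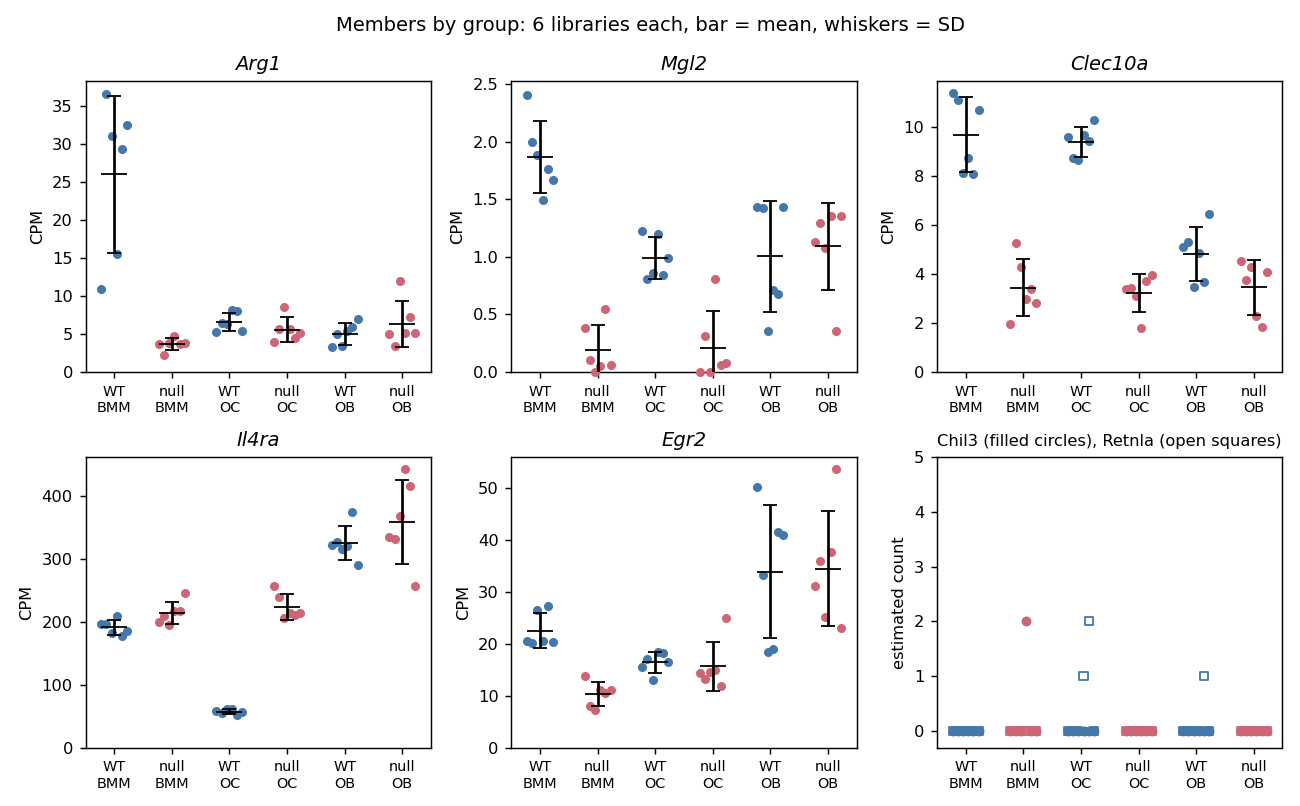
Each point is 1 library, in CPM scaled over all 36 libraries for 5 genes and as the estimated count for Chil3 and Retnla. Blue marks WT, red marks null, and bars and whiskers are the mean and SD of 6 libraries. Arg1 is high only in WT BMM among the groups plotted, at 10.9 to 36.6 CPM, Il4ra is low in WT OC, at 52.2 to 62.2 CPM, and no library has more than 2 counts of Chil3 or Retnla.

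Loss of Mir324 went with lower levels of 4 of the 5 tested genes in BMM, Arg1, Mgl2, Clec10a and Egr2, and with a slightly higher level of Il4ra. Of 11925 genes tested in BMM, 52.3% passed an adjusted p of 0.05 and 25.4% passed it as lower in null. The values of the 4 lower genes did not overlap between genotypes, which was the case for 30.9% of all genes. In OC, Mgl2 and Clec10a were lower, Il4ra was higher, and Arg1 and Egr2 did not pass. There 65.6% of 12121 genes passed, 33.1% as lower and 32.4% as higher, and the 3 called genes did not overlap between genotypes, as was the case for 45.4% of all genes. The Mgl2 ranges met at 0.811 CPM. In OB none of the 5 passed, 1 of them having an unadjusted p under 0.05, while 32.5% of 13607 genes did. DESeq2 and limma also called none of the 5 in OB. With such backgrounds the counts of genes called say little about these 7, and the sizes and directions follow gene by gene.

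**Figure D2:**
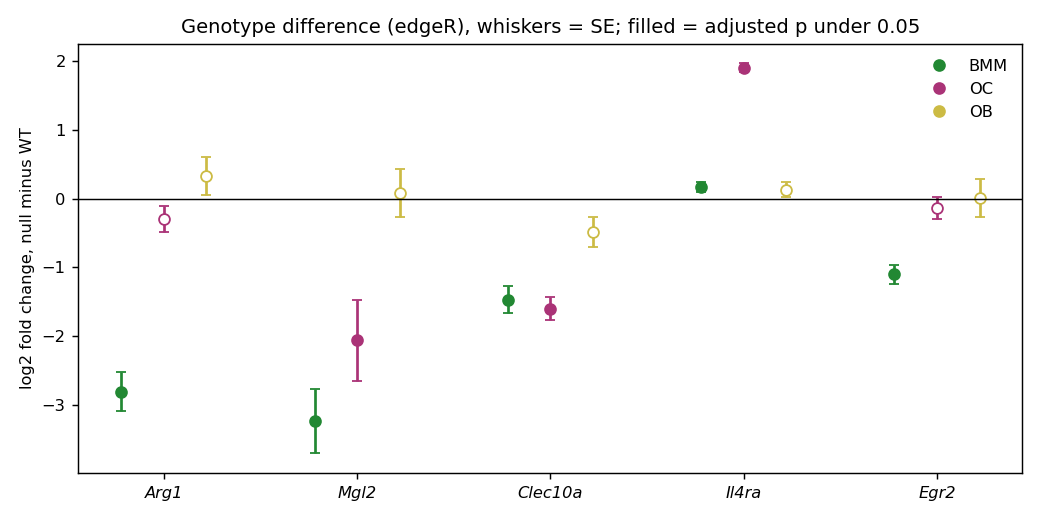
Log2 fold change of null over WT (edgeR) in BMM, OC and OB for the 5 tested genes, whiskers giving 1 SE and filled points an adjusted p under 0.05. Arg1, Mgl2, Clec10a and Egr2 are below 0 in BMM, Il4ra stands at 1.91 in OC, and every OB point is open.

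Il4ra encodes the receptor chain shared by IL-4 and IL-13. Its level ran from 52.2 to 62.2 CPM in WT OC (median 57.5) and from 207 to 257 CPM in null OC (median 214). No null OC library came near the WT OC range, and the mean was 3.75-fold higher in null (224 ± 19.9 against 57.5 ± 3.78 CPM, SD, n = 6, a log2 fold change of 1.91, SE 0.06, edgeR adjusted p 1.20e-13). In BMM the ranges overlapped, 178 to 210 CPM in WT (median 191) and 195 to 246 CPM in null (median 213). The log2 fold change there was 0.17 (SE 0.07, edgeR adjusted p 0.0394). That call was lost in 8 of 12 fits that left out 1 library. It was also lost without a filter on low counts, with the replicate number as a block and with all 36 libraries in 1 fit. On TPM values it was lost too, the log2 difference being 0.02. In OB the level was 291 to 375 CPM in WT (median 322) and 257 to 443 CPM in null (median 352), a log2 fold change of 0.13 (SE 0.11, edgeR adjusted p 0.410).

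The change of Il4ra with RANK-L differed between the 2 genotypes. WT OC were 3.23-fold lower than WT BMM (log2 fold change -1.69, SE 0.07, edgeR adjusted p 2.01e-18, lower in 6 of 6 libraries). Null OC and null BMM differed by 0.06 (SE 0.06, 95% interval -0.07 to 0.18, edgeR adjusted p 0.588). The difference between these 2 changes was 1.75 (SE 0.09, edgeR adjusted p 3.55e-15). Beside it, the osteoclast marker sum was 220 to 245 CPM in WT BMM and 29652 to 31879 CPM in WT OC, and 309 to 397 CPM in null BMM and 421 to 772 CPM in null OC. The part of osteoclast formation in the Il4ra result was not tested.

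Arg1 encodes the enzyme that splits arginine into ornithine and urea. WT BMM held 10.9 to 36.6 CPM (median 30.3) and null BMM 2.18 to 4.74 CPM (median 3.76). All 6 null libraries lay below all 6 WT libraries, although WT was uneven, with replicates 1 and 4 at 10.9 and 15.6 CPM and the other 4 between 29.4 and 36.6 CPM. The mean was 7.02-fold lower in null (3.66 ± 0.829 against 26 ± 10.3 CPM, SD, n = 6, a log2 fold change of -2.81, SE 0.28, edgeR adjusted p 1.46e-06), and between -2.97 and -2.69 with any 1 library left out. In OC the ranges were 5.32 to 8.15 CPM in WT (median 6.36) and 3.89 to 8.59 CPM in null (median 5.37). They overlapped, and the log2 fold change of -0.30 did not pass (SE 0.19, edgeR adjusted p 0.174). Without null OC replicate 3, the highest of its group, it was -0.47 and passed (edgeR adjusted p 0.0195). In OB, Arg1 ran from 3.32 to 6.93 CPM in WT (median 5.19) and from 3.40 to 12 CPM in null (median 5.15), a log2 fold change of 0.33 (SE 0.28, edgeR adjusted p 0.407).

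WT OC held 3.82-fold less Arg1 than WT BMM (log2 fold change -1.93, SE 0.24, edgeR adjusted p 5.92e-08), so that the high level of WT BMM was not seen after RANK-L. In null cultures the change was 0.59 in the other direction and did not pass (SE 0.25, edgeR adjusted p 0.119). The 2 changes differed by 2.52 (SE 0.34, edgeR adjusted p 7.00e-07). Arginase 2 (Arg2), the mitochondrial relative that shares none of the 31-base words of Arg1, went the other way by genotype, at 1.90 ± 0.385 CPM in null BMM and 0.605 ± 0.405 CPM in WT BMM (log2 fold change 1.64, SE 0.38, edgeR adjusted p 0.00179). In OC its log2 fold change was 2.87 (SE 0.30, edgeR adjusted p 3.04e-07).

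Mgl2 and Clec10a encode neighbouring C-type lectins that bind galactose and N-acetylgalactosamine and mark alternatively activated macrophages and some dendritic cells. Mgl2 was a low-count gene, with 26 to 42 counts in WT BMM libraries and 0 to 10 in null BMM. In CPM this was 1.49 to 2.40 in WT BMM (median 1.82) and 0 to 0.547 in null BMM (median 0.0817). The groups did not overlap, and the log2 fold change was -3.24 (SE 0.47, edgeR adjusted p 3.03e-05). In OC it was 0.811 to 1.22 CPM in WT (median 0.925) and 0 to 0.811 CPM in null (median 0.0689), with a log2 fold change of -2.06 (SE 0.59, edgeR adjusted p 0.00583). The null OC mean rested largely on replicate 4, with 20 of the 28 counts of that group, and without it the log2 fold change was -3.34. In OB the genotypes overlapped, at 0.354 to 1.43 CPM in WT (median 1.07) and 0.359 to 1.35 CPM in null (median 1.21), a log2 fold change of 0.09 (SE 0.35, edgeR adjusted p 0.877).

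Clec10a ran from 8.10 to 11.4 CPM in WT BMM (median 9.72) and from 1.95 to 5.26 CPM in null BMM (median 3.20). In OC it ran from 8.67 to 10.3 CPM in WT (median 9.52) and from 1.78 to 3.97 CPM in null (median 3.40). The null libraries were lower without overlap in both cultures, by 2.78-fold in BMM (log2 fold change -1.47, SE 0.20, edgeR adjusted p 1.51e-05) and by 3.04-fold in OC (log2 fold change -1.60, SE 0.17, edgeR adjusted p 2.67e-07). OB held 3.48 to 6.44 CPM in WT (median 4.98) and 1.84 to 4.52 CPM in null (median 3.94). These overlapped, and the log2 fold change of -0.49 did not pass (SE 0.22, edgeR adjusted p 0.110). A lectin signal in bone cultures could come from macrophages. Their marker sum was 6953 to 9878 CPM in null OB and 12394 to 15553 CPM in WT OB. Most of it was Lyz2, at 6357 ± 1294 CPM in null OB and 11128 ± 1199 CPM in WT OB. Of the 10 macrophage markers, 7 were lower in null OB (edgeR adjusted p under 0.05), where 32.5% of all genes passed. The part of macrophages in the Clec10a value was not tested.

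Between BMM and OC, Clec10a did not pass in either genotype, whereas Il4ra and Arg1 passed in WT but not in null. The log2 difference was 0.00 in WT (95% interval -0.35 to 0.35) and -0.12 in null (95% interval -0.50 to 0.27). Its genotype effect differed between OC and BMM by -0.12 (SE 0.26, edgeR adjusted p 0.736). Mgl2 was lower in all 6 WT OC than in any WT BMM library, but the change of -0.87 did not pass (SE 0.49, edgeR adjusted p 0.125). Because Mgl2 and Clec10a share sequence (19.3% of the 31-base words of Mgl2 and 13.7% of those of Clec10a), their reads can be split between them. Their summed level, which such splitting cannot move, averaged 3.64 ± 1.11 CPM in null BMM and 11.6 ± 1.74 CPM in WT BMM, and 3.44 ± 0.527 against 10.4 ± 0.727 CPM in OC. Most of the sum was Clec10a, at 9.70 CPM in WT BMM and 9.40 CPM in WT OC, so it cannot speak for Mgl2 alone. Dendritic cell markers, a further source of lectin transcripts, summed to 18.7 to 25.4 CPM in null BMM and 19.3 to 25.6 CPM in WT BMM, and to 17.4 to 25.9 CPM in null OC against 50.0 to 66.8 CPM in WT OC. Of the 5 tested in BMM, 3 were higher and 1 lower in null (edgeR), where 52.3% of all genes passed. Itgax averaged 2.86 CPM in null and 13.3 CPM in WT, and H2-Ab1 15.4 CPM in null and 5.68 CPM in WT. The part of these cells in the BMM and OC results was not tested.

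Egr2 encodes a zinc finger factor that is induced early by IL-4 and by growth factors. WT BMM held 20.1 to 27.2 CPM (median 20.5) and null BMM 7.35 to 13.9 CPM (median 10.9). The ranges were apart, with null 2.15-fold lower (log2 fold change -1.10, SE 0.14, edgeR adjusted p 9.29e-06). OC values overlapped, at 13.1 to 18.5 CPM in WT (median 16.8) and 11.9 to 24.9 CPM in null (median 14.5), and the log2 fold change was -0.13 (SE 0.16, edgeR adjusted p 0.492). Null OC replicate 6, at 24.9 CPM, stood above the other 5, and without it the value was -0.31 and passed (edgeR adjusted p 0.0161). In OB the ranges were 18.5 to 50.1 CPM in WT (median 37.1) and 23.0 to 53.7 CPM in null (median 33.6), a log2 fold change of 0.01 (SE 0.28, edgeR adjusted p 0.986).

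With RANK-L, Egr2 was lower in WT (log2 fold change -0.41, SE 0.15, edgeR adjusted p 0.0251) and higher in null (0.58, SE 0.16, edgeR adjusted p 0.0197). The first call was lost without WT BMM replicate 3 or 5 or WT OC replicate 3 and with an offset for average transcript length (-0.23) or for length and GC content (-0.35). The second was lost without null BMM replicate 2 or 3, at 0.52 and 0.50. The difference between the 2 changes, 0.99, passed (SE 0.22, edgeR adjusted p 5.11e-04). Over the 5 tested genes, 3 were lower with RANK-L in WT, where 60.5% of 12661 genes passed and 30.1% were lower, and 1 was higher in null, where 12.9% passed. The interaction passed for Arg1, Il4ra and Egr2, and for 51.3% of all genes.

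**Figure D3:**
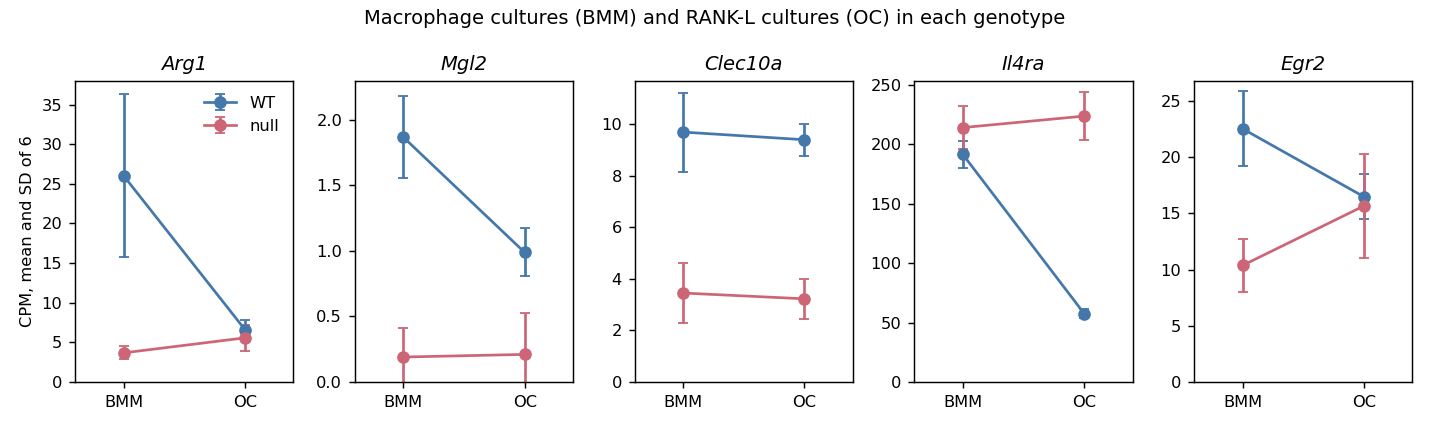
Mean and SD of 6 libraries in CPM for BMM and OC, joined by lines for WT (blue) and null (red). Il4ra and Arg1 drop from BMM to OC in WT only among the 2 genotypes drawn, a difference that passed the interaction test at 1.75 and 2.52, while the Clec10a lines run parallel.

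In the bone-forming cultures the genes stood at other levels than in macrophages. Against WT BMM, WT OB had less Arg1 (log2 fold change -2.38) and Clec10a (-1.01) and more Il4ra (0.76) and Egr2 (0.58), 4 of the 5 genes passing, as did 76.8% of 14268 genes. Against WT OC, OB had less Clec10a (-1.02) and more Il4ra (2.44) and Egr2 (0.99), 3 of the 5, against 77.9% of all genes. Since WT OB also carried the macrophage and osteoclast markers named above, it was not tested which cells held these transcripts. The genotype effect in OB differed from that in BMM for Arg1 (3.15), Mgl2 (3.36), Clec10a (1.00) and Egr2 (1.13), and 45.9% of all genes passed. It differed from that in OC for Mgl2 (2.18), Clec10a (1.13) and Il4ra (-1.77), and 55.2% of all genes passed. Each of these is a difference of log2 fold changes, and both sets share the OB libraries.

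The 6 groups were ordered by mean CPM for each gene, so the order came from the same values that were then tested. Neighbouring groups were compared by a two-sided exact permutation test, 25 pairs in all, whose smallest possible p was 0.00216 (0.00773 adjusted). Arg1 had 1 step that passed, from WT OC to WT BMM. The other 5 groups did not differ from their direct neighbours beyond their spread. Groups further apart were not compared, so these 5 are not shown to be equal. Arg1 in null BMM, at 2.18 to 4.74 CPM, did not overlap WT OC, at 5.32 to 8.15 CPM. For Mgl2 the steps lay between null OC and WT OC and between null OB and WT BMM, and for Clec10a between WT OB and WT OC. The Il4ra steps lay between WT OC and WT BMM and between null OC and WT OB. Those of Egr2 lay between null BMM and null OC (exact permutation p 0.00649, adjusted 0.0203) and between WT OC and WT BMM.

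Chil3 and Retnla, which are among the most strongly IL-4-induced genes of mouse macrophages, were all but absent. Chil3 had 2 counts in all 36 libraries together, both in null BMM replicate 4. Retnla had 4 counts, in 2 WT OC libraries and 1 WT OB library. Neither passed the filter on low counts, so neither was tested. With 3 counts as the floor, the totals of 111289378 to 124436199 counts in a group make a count of 0 compatible with up to 0.0241 to 0.0270 CPM, a limit for counting error only. Chil3 shares 28.9% of its 31-base words with its relative Chil4, which had 0 counts in every library, and Retnla shares 5.4% with Retnlg, which had 1 count.

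The cytokines were scarce as well. Il4 had 140 counts over 36 libraries and at most 12 in any 1, and Il13 had 3 counts in 2 WT BMM libraries. Of 13 listed genes of IL-4 and IL-13 signalling, 10 were tested in BMM, where 3 were higher and 4 lower in null (median log2 fold change -0.06, against 0.02 over all genes). In OC 6 were higher and 1 lower (median 0.44, against -0.03), and in OB 1 was higher and 1 lower. Over all genes 52.3% passed in BMM, 65.6% in OC and 32.5% in OB. With an offset for length and GC content 5 were higher in BMM and none in OB (edgeR). The common gamma chain Il2rg, which pairs with the Il4ra product in blood cells, averaged 682 ± 77.3 CPM in null BMM and 161 ± 8.57 CPM in WT BMM (log2 fold change 2.09, SE 0.08, edgeR adjusted p 2.71e-12). Il13ra1, the partner chain used for IL-13, was lower in null BMM (11.9 ± 1.87 against 21.2 ± 0.846 CPM, a log2 fold change of -0.83, edgeR adjusted p 5.05e-06) and in null OC (12.1 ± 3.51 against 32.2 ± 2.67 CPM, a log2 fold change of -1.45, edgeR adjusted p 2.13e-07). The 2 partner chains of the receptor thus moved in opposite directions in both cultures.

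Stat6 itself was lower in null BMM, the log2 difference being -0.31 (SE 0.07, edgeR adjusted p 9.65e-04) and higher in null OC by 0.50 (SE 0.05, edgeR adjusted p 2.16e-07). The kinase genes Jak1 and Jak3 did not pass in BMM (0.00 and -0.13) and were higher in null OC (0.58 and 0.38). Socs1, an inhibitor of this signalling, was higher in null BMM (log2 fold change 1.70) and null OC (1.36). In OB, Il2rg was lower by -0.56 (edgeR adjusted p 1.06e-04), and Il13ra1, Jak1, Jak3 and Stat6 did not pass.

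**Figure D4:**
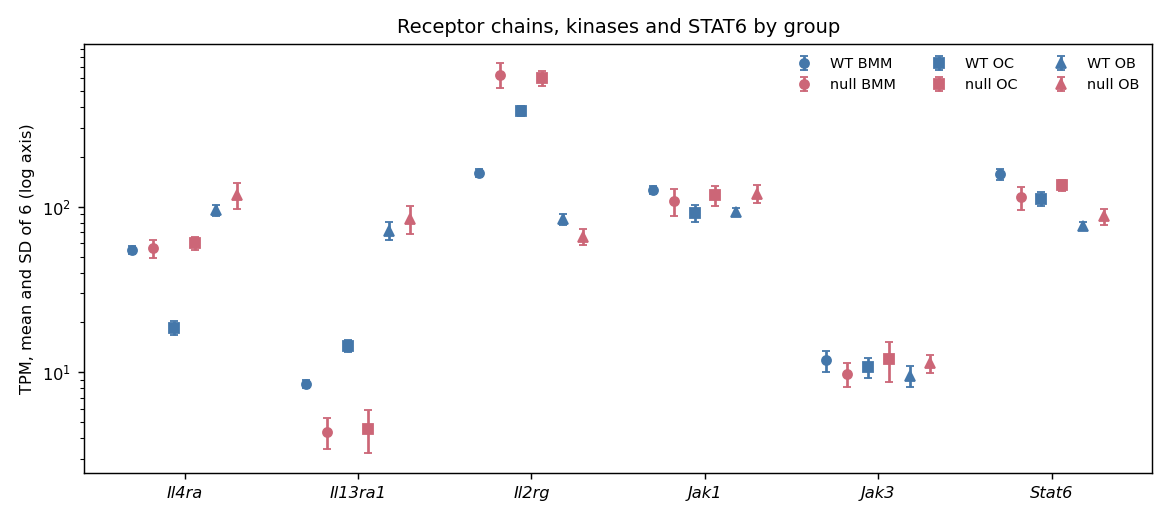
Mean and SD of 6 libraries in TPM on a log axis for the receptor chains Il4ra, Il13ra1 and Il2rg, the kinases Jak1 and Jak3 and Stat6, with circles for BMM, squares for OC, triangles for OB, blue for WT and red for null. Il2rg averages 629 TPM in null BMM and 161 TPM in WT BMM, while Il13ra1 averages 4.35 and 8.49 TPM in the same groups.

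Other genes used as markers of alternative activation went in both directions in BMM and in OB. Of 17 listed, 10 were tested in BMM, and 6 were lower and 3 higher in null (median log2 fold change -0.43). The mannose receptor Mrc1 averaged 243 ± 42.7 CPM in null and 1214 ± 86.7 CPM in WT (a log2 fold change of -2.30, SE 0.11, edgeR adjusted p 7.45e-11), as was the scavenger receptor Cd163 (-1.32), whereas the matrix gene Fn1 was higher (2.59). In OC 7 of 11 were higher in null and none lower (0 also at an unadjusted p under 0.05 with edgeR, and 0 with DESeq2, median 1.20), among them Fn1 (4.24), the lipid scavenger Cd36 (2.80) and the protease Mmp12 (2.49). On TPM values 7 of 16 were higher and 4 lower in OC, and the median was -0.09. With an offset for length and GC content 1 was lower, and with all 36 libraries in 1 fit 1 of 13 was lower. Without a filter on low counts 2 of 17 were lower, and the median was 0.26. Mrc1 did not pass in OC (0.26, SE 0.23, edgeR adjusted p 0.324). In OB 2 of 10 were higher and 3 lower. The shares of all genes that passed were 52.3% in BMM, 65.6% in OC and 32.5% in OB.

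Among 12 transcription factor genes linked to the state, 4 of 10 tested were higher and 4 lower in null BMM, and 4 were higher and 6 lower in null OC. Egr1, the relative of Egr2, fell in BMM from 52.6 ± 22.1 CPM in WT to 1.91 ± 0.725 CPM in null (log2 fold change -4.76, SE 0.31, edgeR adjusted p 2.45e-08), and was lower in OC too (-4.54). Pparg, a regulator of lipid handling in macrophages, was lower in null BMM (-2.38), and Cebpb, an activator of Arg1, was higher (2.72). In OB 4 of 10 were higher and 1 lower. Among all genes 52.3% passed in BMM, 65.6% in OC and 32.5% in OB.

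Genes of arginine and polyamine metabolism other than Arg1 moved in both directions in the null macrophage cultures. Of 14 tested, 3 were higher and 5 lower in null BMM (median log2 fold change 0.01). Of 15 in OC, 6 were higher and 5 lower (median -0.14). Genes passing over the whole set made up 52.3% in BMM, 65.6% in OC and 32.5% in OB. Those named next were among the 3 of the list with the largest change in BMM or OC. Ass1, which works in arginine synthesis, averaged 419 ± 25.0 CPM in null BMM and 23.5 ± 4.11 CPM in WT BMM (log2 fold change 4.17, SE 0.11, edgeR adjusted p 9.01e-14), and it was higher in null OC (3.58). The arginine importer Slc7a2 was higher in null BMM (1.41) and null OC (3.16). Nos2, the nitric oxide synthase that competes for arginine in classical activation, was not tested in BMM and was higher in null OC, at 2.10 ± 0.920 against 0.125 ± 0.104 CPM (a log2 fold change of 3.92, SE 0.47, edgeR adjusted p 1.46e-06). In OB 1 of 15 was higher and 5 lower, against 0 and 2 with the length and GC offset, 3 and 1 on TPM values with limma, and 0 higher without null OB replicate 5.

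Genes of classical activation, the state driven by interferon and bacterial products, were also read. In null BMM 5 of 9 tested were higher and 2 lower, and in null OC 7 of 10 were higher and 1 lower (medians 0.55 and 1.75). Of all genes, 52.3% passed in BMM, 65.6% in OC and 32.5% in OB. The prostaglandin synthase Ptgs2 rose from 0.360 ± 0.202 to 13.5 ± 4.40 CPM in BMM (log2 fold change 5.23, SE 0.32, edgeR adjusted p 1.40e-09). Il1b was higher by 4.83 in BMM, from a mean of 0.0581 CPM in WT. In OB none of 12 was higher (0 also at an unadjusted p under 0.05 with edgeR, and 0 with DESeq2) and 4 were lower, or 2 with the length and GC offset, 0 on TPM values with limma, and 2 to 5 with any 1 library left out.

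Mgl2 and Clec10a are the only 2 of the 7 genes on chromosome 11, where Mir324 lies at 70012043 to 70012131 (GRCm38). Mgl2 spans 70130329 to 70137550, starting 118 kb from the hairpin, and Clec10a spans 70156197 to 70170834, starting 144 kb away, both on the plus strand. Of 40 genes listed within 250 kb of the hairpin, 22 were tested in BMM, and 7 were higher and 5 lower in null. The 3 with the largest change in BMM were Mgl2, Clec10a and Fgf11 (1.42). In OC 9 of 23 were higher and 10 lower, and the 3 largest changes were those of Dlg4 (3.81), Tmem102 (-2.25) and Mgl2. In OB 2 of 30 were higher and 7 lower, with Mgl2 and Clec10a not among them. Beside these counts, 52.3% of all genes passed in BMM, 65.6% in OC and 32.5% in OB. Whether the place of the 2 lectin genes near the deleted locus bears on their levels was not tested. The other members lie at 24915221 to 24927484 on chromosome 10 (Arg1, minus strand), 67535475 to 67542188 on chromosome 10 (Egr2, plus), 106147554 to 106167564 on chromosome 3 (Chil3, minus), 48842551 to 48844461 on chromosome 16 (Retnla, plus) and 125552120 to 125579474 on chromosome 7 (Il4ra, plus).

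**Figure D5:**
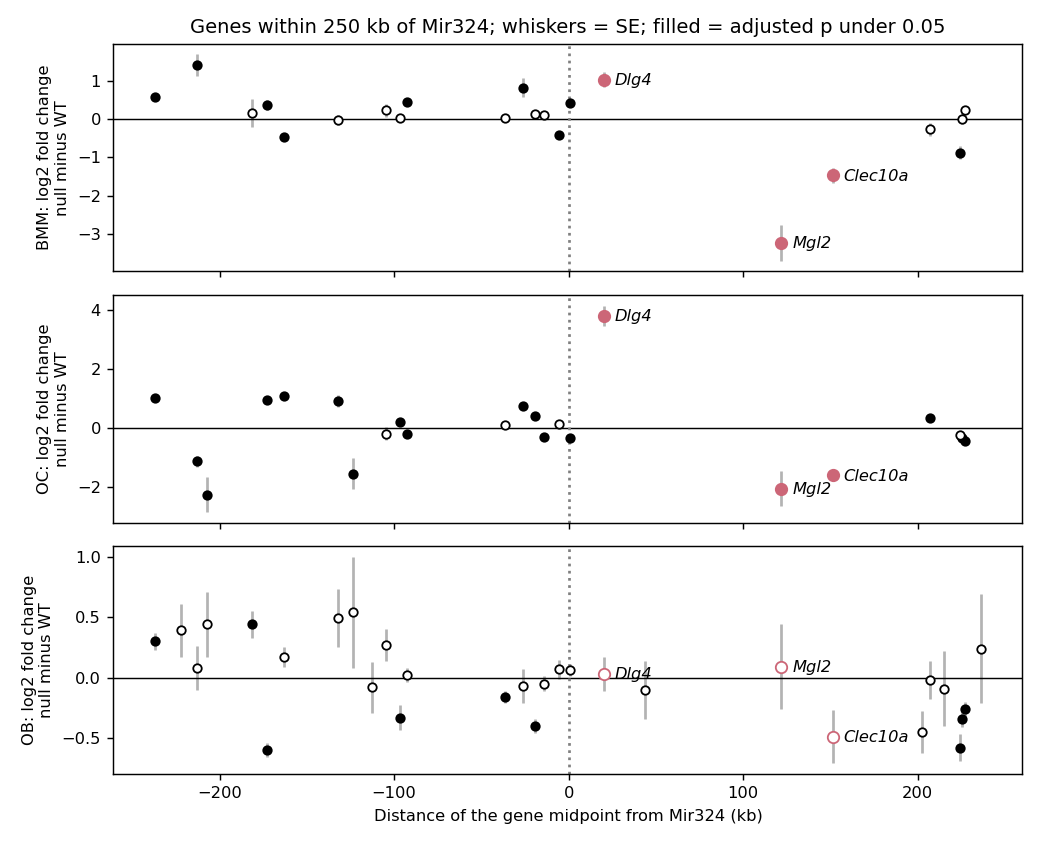
Log2 fold change of null over WT for tested genes within 250 kb of Mir324, against the distance of the gene midpoint from the hairpin in kb, whiskers giving 1 SE and filled points an adjusted p under 0.05. Mgl2 and Clec10a are low in BMM and OC, at -3.24 and -1.47 in BMM, and their points are open in OB.

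Most of the signal of each gene came from 1 or 2 listed transcripts. Arg1, Il4ra and Retnla had 1 listed transcript each. Egr2-201 held 75.6% to 86.7% of the Egr2 TPM in the 6 groups, and Mgl2-201 held 63.5% to 100% of the Mgl2 TPM. For Clec10a the main form was Clec10a-202, at 43.5% to 66.0%, followed by Clec10a-201, at 19.0% to 38.0%. Both Clec10a forms were lower in null BMM, at 2.43 against 6.55 TPM and 0.733 against 2.24 TPM.

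The patterns of the 5 genes over the 36 libraries were compared with those of 11467 genes by Pearson's r on log2 CPM, as a description over libraries that share the 6 groups. Il4ra was nearest to Ece1 and Emilin1 (r 0.98 for both), each lowest in WT OC, at 5.23 and 17.0 CPM. Arg1 was nearest to Tmem154 (r 0.88) and Gatm (r 0.86), highest in WT BMM at 174 and 155 CPM. Mgl2 was nearest to Zfp652 (r 0.86) and Tgfbr2 (r 0.84), Clec10a to Dusp22 (r 0.90) and Ndufs8 (r 0.87), and Egr2 to Plk2 (r 0.91) and Brat1 (r 0.89). Among the 5 themselves, Mgl2 and Clec10a reached r 0.59 and Clec10a and Il4ra r -0.63.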

How the data were processed

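Total RNA was isolated and libraries were made with a low-input kit, per the labels' protocols. Per the submitters' processing notes, kallisto and DESeq2 were used, and the genome build named is GRCh38, a human build, although 100% of the identifiers are mouse; versions are not given in the sources used here. The authors deposited estimated counts and TPM for 88198 transcripts in each library. Of these, 97.5% matched GENCODE M21 (GRCm38) by identifier, and the rest (0.63% to 0.97% of counts) were left out. Estimated counts were summed per gene and rounded, filtered with filterByExpr, scaled by TMM and tested with the quasi-likelihood test of edgeR 4.0.16 in R 4.3.3, with Benjamini-Hochberg adjustment across every gene in a comparison (threshold 0.05). Genotype was fitted on 12 libraries of a cell type, RANK-L and its interaction on 24, and comparisons with OB on 36. CPM were scaled over all 36 libraries. The steps were tested on simulated data.

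The members and lists were chosen with earlier results of these data known. Named genes were the members, fixed pathway genes, and in each list and genotype comparison the 3 called genes with the largest change and a mean of at least 1 CPM. The alternatives were DESeq2 1.42.0, limma 3.58.1 on log2(TPM + 0.1), RLE in place of TMM, other filters (none, or a mean count of 10), offsets for transcript length and for length with GC content, the replicate number as a block, 1 fit of 36 libraries and each library left out. List counts under some of these were chosen after seeing the data. No sequencing batch is named in the labels, so a batch that went with a group cannot be told apart from it.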

Additional observations from a re-analysis of the deposited data

Results flagged for a closer look

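Among 29 sets of 6 values, 1 for each gene and group where some library had at least 10 counts, 2 held a library that stood apart by Dixon's criterion, and chance gives about 1 in 20. The lowest was Mgl2 in null OB replicate 5, at 0.359 CPM against 1.08 to 1.35 CPM in the other 5. The highest was Egr2 in null OC replicate 6, at 24.9 CPM against 11.9 to 15 CPM.

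The genotype effect differed between cultures by an interaction term for 10 values, each a difference of log2 fold changes tested with edgeR. Between OC and BMM it differed for Arg1 (2.52), Il4ra (1.75) and Egr2 (0.99). Between OB and OC it differed for Mgl2 (2.18), Clec10a (1.13) and Il4ra (-1.77). Between OB and BMM it differed for Arg1 (3.15), Mgl2 (3.36), Clec10a (1.00) and Egr2 (1.13). The same tests passed for 51.3%, 55.2% and 45.9% of all genes, in the order given. Beside such shares, the counts of genes that differed say little about these genes. The osteoclast marker sum was 421 to 772 CPM in null OC and 29652 to 31879 CPM in WT OC, and its part in the values that involve OC was not tested.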

How the results depend on the processing

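Of the 29 fold changes past the threshold, the direction held in all 219 refits with other settings and 6 refits lost the call, those of Il4ra in BMM and of Egr2 with RANK-L in WT. With 1 library left out, 251 of 264 refits of 15 such values kept the call and 13 lost it, all for Il4ra in BMM (0.13 to 0.20), Egr2 with RANK-L in WT (-0.44 to -0.34) or Egr2 with RANK-L in null (0.40 to 0.68). On log2(TPM + 0.1) all 5 genes passed in OC, Arg1 at -0.52 and Egr2 at -0.50. The TPM scale shifted the median of all genes by -0.14 in BMM, -0.26 in OC and 0.17 in OB, with 2193 genes higher and 4208 lower, 2749 and 5777, and 3916 and 922, against 3217 and 3024, 3928 and 4018, and 2115 and 2305 with edgeR. The offset for length and GC content left 2289 genes called in OB, against 4420.

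Values near 0 changed sign. In OB, Mgl2 was -0.06 and Egr2 -0.01 with the length offset, and Il4ra -0.13 and Egr2 -0.03 with the length and GC offset. Clec10a with RANK-L in WT was -0.01 without a filter, -0.03 with the length offset and -0.01 with the length and GC offset, and Il4ra with RANK-L in null was -0.06 with the latter. Mgl2 in WT OB against OC was 0.06 with RLE, 0.04 without a filter, 0.00 at a mean of 10 counts, 0.05 with DESeq2 and 0.17 with the length offset. Leaving out 1 library gave -0.08 to 0.28 for Mgl2 and -0.16 to 0.15 for Egr2 in OB, -0.04 to 0.05 for Clec10a with RANK-L in WT, -0.97 to 0.95 for Mgl2 and -0.24 to 0.05 for Clec10a with RANK-L in null, and -0.09 to 1.83 and -0.24 to 0.04 for their interactions. The cause was not tested.

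RANK-L in null called 810 to 2143 genes, and 0 to 1 of the 5 members, with 1 library left out, the fewest without null BMM replicates 2, 3 or 4 (840, 810 and 948) or null OC replicate 3 (1046). The deviations of libraries with equal replicate numbers correlated between -0.13 and 0.10, which does not exclude that they share a mouse. Between WT BMM and WT OC the equal number gave the highest correlation for 3 of 6 libraries. With the replicate number as a block 985 genes were called for RANK-L in null, against 1628. Under that block Il4ra in BMM lost its call (0.17), and Arg1 in WT OB against OC gained one (-0.49). With the length and GC offset, Mgl2 in WT OB against BMM (-1.04) and the Il4ra genotype effect in OB against BMM (-0.42) also gained one. Counts of Mgl2, Chil3 and Retnla were too few for small changes to be detectable at this depth.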

Other observations

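Genes of other blood cells also differed in the macrophage cultures. In null BMM the monocyte gene Hp averaged 40.9 ± 1.88 CPM against 0.225 ± 0.154 CPM in WT, and the neutrophil gene S100a8 10.7 ± 3.70 against 0.164 ± 0.0799 CPM. The monocyte and macrophage gene F13a1 went the other way, at 14.1 ± 3.36 CPM in null and 189 ± 30.5 CPM in WT. Of 8 monocyte genes, 2 were higher and 1 lower of the 5 tested in BMM (edgeR, adjusted p under 0.05). Of 10 neutrophil genes 2 were higher of the 3 tested, and 52.3% of all genes passed there. The neutrophil genes Elane, Ltf and S100a9 were at 0 in every null BMM library, and 3 of the 10 averaged 1 CPM or more.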
